A study of Mus musculus with 16 samples.

Results

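GABA metabolism, the anchoring and trafficking of its receptor and the transport of chloride were followed through 9 listed genes, of 46078 genes in the count table. The genes were taken by symbol: Gad1, Abat and Aldh5a1 for the metabolism of GABA, Gphn, Gabarap, Gabarapl1 and Gabarapl2 for anchoring and trafficking, and Slc12a2 and Slc12a7 for chloride. Of the 9 genes, 8 passed the filter on low counts and were tested among 16101 genes. Gad1 did not pass. RNA came from tumours of B16F10-GP cells, a derivative of a pigmented melanoma line of C57BL/6 origin, implanted in 25% Matrigel on both flanks of female C57BL/6 mice 6 to 8 weeks old. Each of 4 groups had 4 libraries. The combined group had 5 Gy of X-rays to the right flank in the morning of day 10 and the compound with the code name QH-II-066 from that evening. The 5 Gy group had the radiation alone. The QH-II-066 group had the compound alone from day 10, and in both drug groups it was injected into the peritoneum at 10 mg/kg daily for 7 days. The last group is labelled untreated, while the protocol describes vehicle alone. All 4 groups share the cell line, the host strain and the Matrigel. The study's title concerns enhancement of GABA-A receptors in melanoma cells with radiation. Neither the profiled flank nor separate mice for the libraries of 1 group are given by the labels, and the p-values therefore reflect only how these samples spread, part of which may be technical.

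GABA is made from glutamate by glutamate decarboxylases, one of them encoded by Gad1, and acts on GABA-A receptors, which are chloride channels. It is broken down in mitochondria by GABA transaminase, the product of Abat, and succinic semialdehyde dehydrogenase, the product of Aldh5a1. Gephyrin, encoded by Gphn, holds inhibitory receptors at synapses and also completes the molybdenum cofactor in cells with no synapses. The GABARAP proteins belong to the ubiquitin-like ATG8 family: GABARAP was found through its binding to a GABA-A receptor subunit, and the family is joined to lipids of autophagosomes. NKCC1, encoded by Slc12a2, brings sodium, potassium and chloride into cells, and KCC4, encoded by Slc12a7, lets potassium and chloride out, so that their balance helps to set whether chloride enters or leaves through an open GABA-A channel.

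The deposited values are fragment counts, and library totals ran from 6994198 to 40799942. Melanocyte genes had the highest marker score in each of the 4 groups. Their mean log2 CPM, where CPM is the count scaled to library size, was 9.17 ± 0.26 in the combined group, 9.0 ± 0.13 after 5 Gy, 9.23 ± 0.08 after QH-II-066 and 9.32 ± 0.13 in the untreated group (SD, n = 4 each). In 5 libraries, 5 Gy replicates 2 and 4 and combined replicates 2, 3 and 4, the score of 12 skin epithelium genes lay between 3.81 and 7.37, against -3.20 to -0.82 in the other 11. The libraries also differed in their gene length slope, fitted over the genes whose mean log2 CPM exceeded 3 by regressing each gene's difference from its own mean, in log2 CPM, on the log2 of gene length. It is positive where long genes are read relatively high. It was -0.09 ± 0.12 in the combined group, 0.11 ± 0.11 after 5 Gy, -0.09 ± 0.16 after QH-II-066 and 0.07 ± 0.17 in the untreated group (SD, n = 4 each). All 4 groups overlapped in this slope.

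The 3 GABARAP genes encode proteins of the same length, and they are shown because similar genes can share reads. Each coding sequence has 117 codons before the stop. The last 30 bases of each, 5′ to 3′ on the coding strand, are shown with the glycine codon in capitals. The proteins are cut behind this glycine and joined to lipid through it. The sequences are from GENCODE M21 on GRCm38, and the genes lie on chromosomes 11, 6 and 8.
Gabarap: tacagtgatgaaagcgtctatGGTctgtga
Gabarapl1: tacagtgatgaaagtgtctatGGAaaatga
Gabarapl2: tacagcggagagaacacttttGGCttctga
Over the whole coding sequence, Gabarap and Gabarapl1 had 74.9% of bases in common, Gabarap and Gabarapl2 61.9%, and Gabarapl1 and Gabarapl2 63.8%. The longest run of identical bases was 17 between Gabarap and Gabarapl1, 10 between Gabarap and Gabarapl2 and 16 between Gabarapl1 and Gabarapl2. No stretch of 50 bases was found in the transcripts of more than 1 of the 9 genes. Sequence shared with other genes, searched for on both strands, leaves some counts uncertain. Of the 50-base stretches of Gabarapl1, 23.1% were also found in 1700101I11Rik. Of those of Aldh5a1, 13.7% were found in 2 other genes, most of them in 4932702P03Rik. Likewise 12.2% of the stretches of Gabarapl2 were found in 4 other genes, most of them in Gm3724, and 2.58% of those of Gphn in Gm48226. The counting used no strand. Aldh5a1 shares 399 exon bases with 4932702P03Rik (30 counts in all) and 203 with 9330162012Rik (84 counts), and Gabarapl1 shares 35 with 1700101I11Rik (177 counts), each on the opposite strand, so reads inside these overlaps cannot be told apart. The stretches found in 1700101I11Rik and 4932702P03Rik may be these same overlaps and not a separate source of uncertainty. Gabarapl1 itself had 61794 counts in all and Aldh5a1 4901.

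The levels of the 9 genes spanned a wide range. Per kilobase of gene length and averaged over 16 libraries, Gabarap stood at 157 ± 32.3 CPM per kilobase (SD), the highest of the 9. Gabarapl1 stood at 75.1 ± 9.81, Gabarapl2 at 33.9 ± 6.37, Slc12a7 at 23.7 ± 3.53 and Gphn at 11.6 ± 2.99 CPM per kilobase. The chloride importer gene Slc12a2 had 3.78 ± 2.14, the transaminase gene Abat 2.18 ± 0.61 and the dehydrogenase gene Aldh5a1 1.88 ± 0.30 CPM per kilobase. The libraries' ranges did not overlap between Gabarap and Gabarapl1, between Gabarapl1 and Gabarapl2, or between Slc12a7 and Gphn. They overlapped between Gabarapl2 and Slc12a7, between Gphn and Slc12a2, between Slc12a2 and Abat and between Abat and Aldh5a1. The overlap of Gphn and Slc12a2 rests on QH-II-066 replicate 3, with 11.5 CPM per kilobase of Slc12a2 and 14.5 of Gphn. Elsewhere Slc12a2 reached at most 4.33 CPM per kilobase, and the lowest value of Gphn was 7.20. The RNA was enriched by capture probes, whose efficiency for each gene is not given in the sources used here. Levels between genes also depend on the length used, here that of all counted exons. Against the longest principal transcript in GENCODE M21 it is 7748 to 4636 bases for Abat and 1844 to 1351 for Gabarap. For Gabarapl1 it is 1765 to 1820 bases, and for Aldh5a1 both are 5647.

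Gabarapl1 varied least over the 16 libraries, with a coefficient of variation of 13.1%, and Slc12a2 most, with 56.7%. The median over all tested genes was 26.3%, and Slc12a7 (14.9%), Aldh5a1 (15.7%), Gabarapl2 (18.8%), Gabarap (20.6%) and Gphn (25.8%) lay below it. Abat, at 28.1%, lay above it. The value of Slc12a2 rests on QH-II-066 replicate 3: over the other 15 libraries it was 19.7%, below the median of 26.5% over all tested genes, and Gphn then varied most of the 8, with 26.3%. In bulk tumour RNA, fewer cells of a type and less RNA per cell cannot be told apart.

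**Figure D1:**
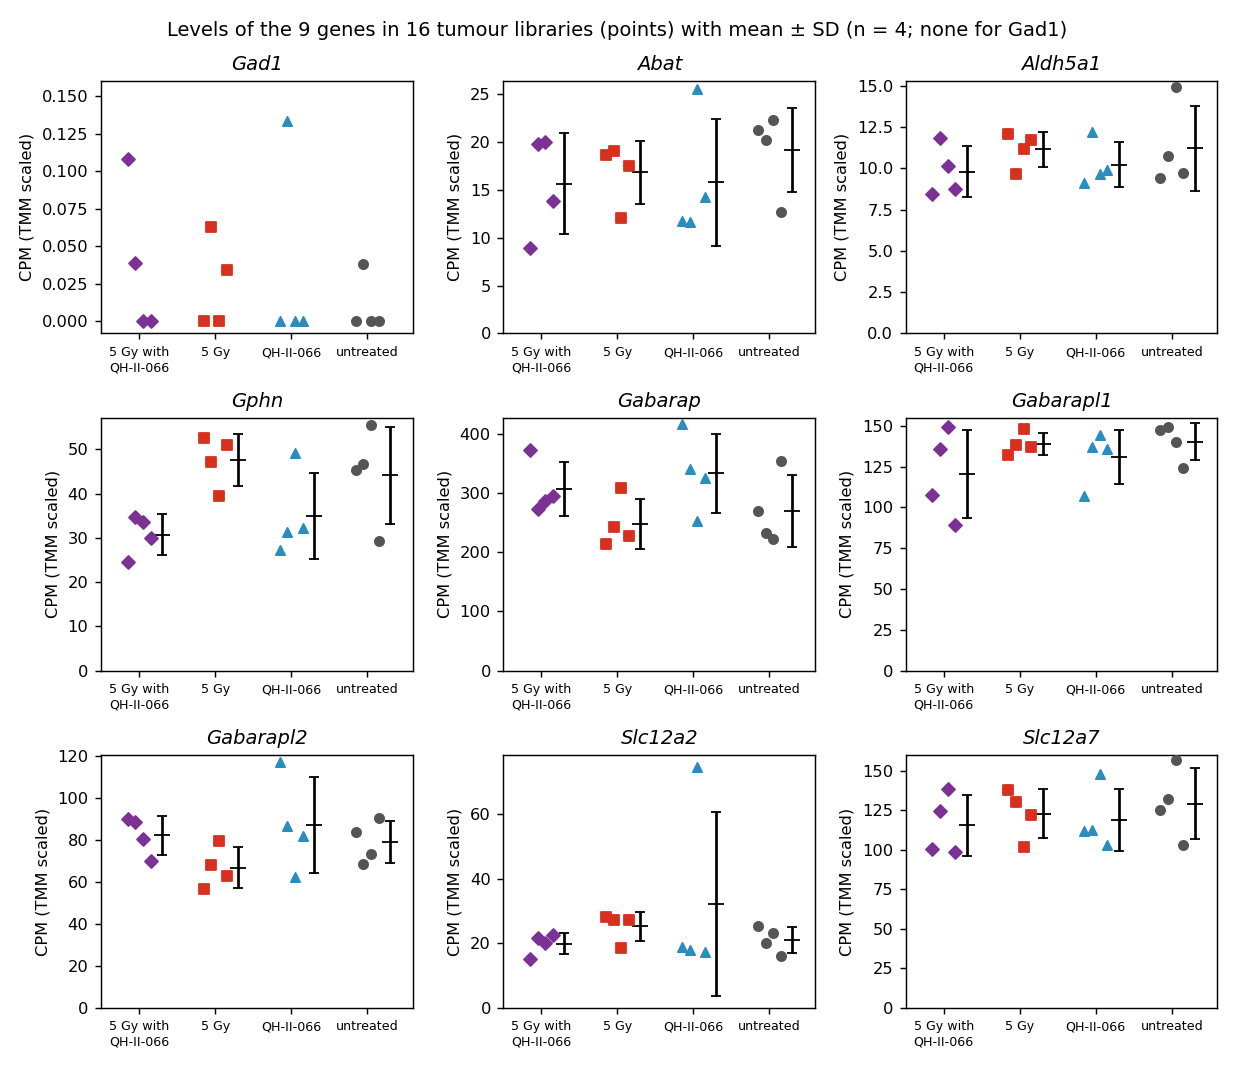
Level of each of the 9 genes in CPM (vertical axes, with TMM scaling) in each library (points), by group, with the mean ± SD over 4 libraries to the right of the points, except for Gad1. The 4 combined libraries of Gphn lie below the 4 libraries of the 5 Gy group, Gad1 is near 0 throughout, and QH-II-066 replicate 3 stands apart at 74.8 CPM of Slc12a2.

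None of the 8 tested genes passed an adjusted p of 0.05 in any of 8 comparisons (edgeR quasi-likelihood test, two-sided, Benjamini-Hochberg over all tested genes). In the 5 comparisons between groups, the 40 log2 fold changes lay between -0.69 and 0.60, with adjusted p from 0.209 to 0.9997. After 5 Gy against untreated, 0 of 8 passed, where 1.26% of all tested genes did, and 0 of 8 had an unadjusted p under 0.05. For all irradiated against all unirradiated libraries 0 of 8 passed, against 1.4% of all genes. No gene of the whole table passed in the other comparisons (0% each): QH-II-066 against untreated, the combined group against each of the other 3 groups, the interaction of radiation and drug, and all drug-treated against all drug-free libraries. An unadjusted p under 0.05 was reached by Gphn in the combined group against untreated and against 5 Gy, and by Gphn and Gabarap in drug-treated against drug-free libraries. Of all tested genes, 15.1% reached it after 5 Gy against untreated, 16.2% in the combined group against untreated, 19.5% in the combined group against 5 Gy and 26.1% in drug-treated against drug-free libraries. DESeq2 called 1 of the 8 genes in 1 of the 8 comparisons, which was Gphn in drug-treated against drug-free libraries, where DESeq2 called 15.9% of the 7361 genes to which it gave an adjusted p.

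**Figure D2:**
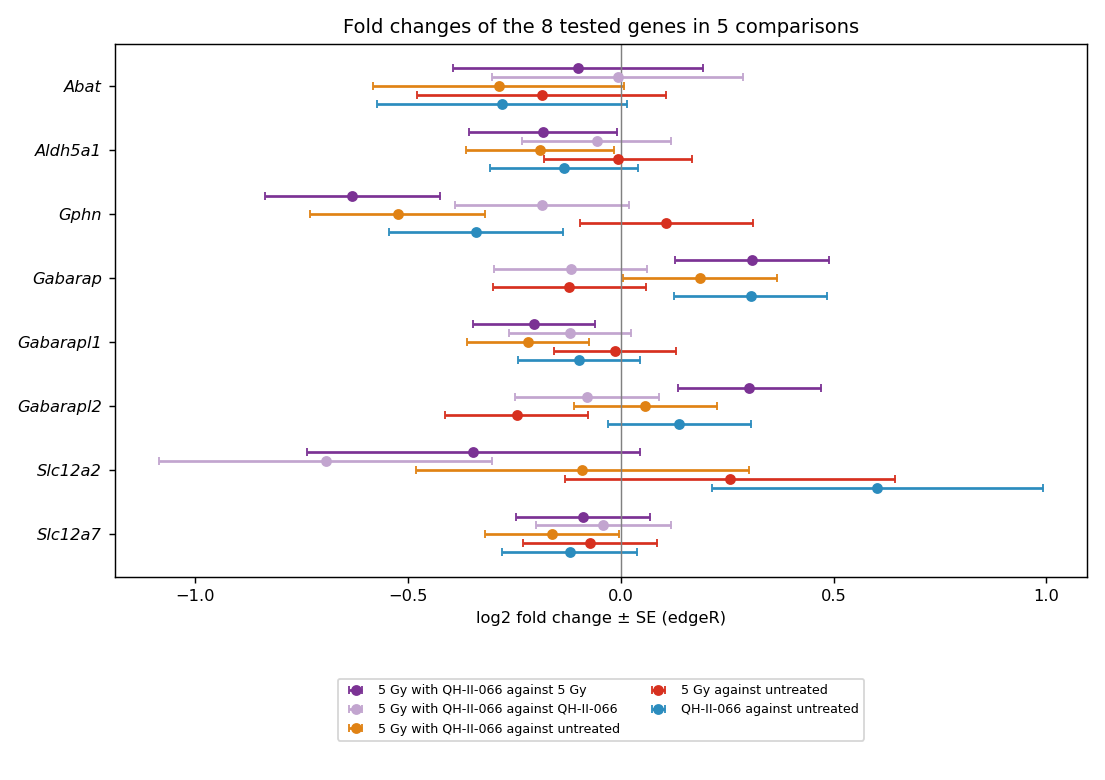
Log2 fold changes ± SE (horizontal axis; edgeR) of the 8 tested genes (rows) in the 5 comparisons between groups (colours). Gphn in the combined group against 5 Gy is at -0.63 ± 0.21, and the widest error bars are those of Slc12a2.

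Of the 3 genes taken for GABA metabolism, the decarboxylase gene Gad1 was nearly unread. Abat and Aldh5a1, whose products break GABA down, were read in all 16 libraries, with no difference between groups that passed. Other genes of GABA synthesis are in a list given further below. Gad1 (ENSMUSG00000070880, mm10 chromosome 2, plus strand, 70553072 to 70602014) had 13 counts in all 16 libraries together and 0 in 10 of them. It had 4, 1, 0 and 0 counts in the combined group, 0, 2, 0 and 1 after 5 Gy, 0, 4, 0 and 0 after QH-II-066, and 0, 1, 0 and 0 in untreated tumours. No group had a count in more than 2 libraries. A limit of 3 counts corresponds to between 0.0796 and 0.446 CPM over the 16 libraries, for counting error only, and the highest level seen was 0.134 CPM. A difference in Gad1 was therefore not detectable at this depth.

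Abat (ENSMUSG00000057880, chromosome 16, plus strand, 8513429 to 8621568) had 8.98, 19.8, 20.02 and 13.8 CPM in the combined group, 18.6, 19.1, 12.1 and 17.5 CPM after 5 Gy, 11.7, 11.7, 25.6 and 14.2 CPM after QH-II-066, and 21.3, 20.2, 22.4 and 12.7 CPM in untreated tumours. Each group held low and high libraries, and all 4 overlapped. The log2 fold change of Abat was -0.29 ± 0.29 in the combined group against untreated (95% interval -0.91 to 0.34), -0.19 ± 0.29 after 5 Gy and -0.28 ± 0.29 after QH-II-066 against untreated (SE; edgeR adjusted p = 0.580, 0.796 and 0.665).

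Aldh5a1 (ENSMUSG00000035936, chromosome 13, minus strand, 24907579 to 24937661) had 8.46, 11.8, 10.2 and 8.78 CPM in the combined group and 12.1, 9.65, 11.2 and 11.7 CPM after 5 Gy. It had 9.09, 12.2, 9.66 and 9.92 CPM after QH-II-066, and 9.42, 10.7, 14.97 and 9.74 CPM in untreated tumours. The groups overlapped, and untreated replicate 3 was the highest library. In combined replicate 4, the shallowest library, Aldh5a1 rested on 59 and Abat on 93 fragments. In the combined group against untreated the log2 fold change of Aldh5a1 was -0.19 ± 0.17 (95% interval -0.56 to 0.18; edgeR adjusted p = 0.533), and after 5 Gy against untreated it was -0.01 ± 0.17 (95% interval -0.38 to 0.36).

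Of the 8 tested genes, only Gphn separated a pair of compared groups with no overlap between libraries, and it did not pass the adjusted threshold. Gphn (ENSMUSG00000047454, chromosome 12, plus strand, 78226655 to 78684767) had 24.4, 34.8, 33.7 and 29.9 CPM in the combined group and 52.5, 47.2, 39.4 and 51.1 CPM in the 5 Gy group. Each combined library was lower than each 5 Gy library, as were 3.97% of all tested genes. The log2 fold change of Gphn between them was -0.63 ± 0.21 (95% interval -1.07 to -0.19; edgeR adjusted p = 0.209, unadjusted 0.00752).

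After QH-II-066 alone Gphn had 27.2, 31.2, 49.1 and 32.2 CPM, against 45.3, 46.7, 55.5 and 29.2 CPM in untreated tumours. Replicate 3 was high among the QH-II-066 libraries and replicate 4 low among the untreated ones, so these groups overlapped. Their log2 difference was -0.34 ± 0.20 (edgeR adjusted p = 0.546). The combined group against untreated gave -0.52 ± 0.20 (adjusted p = 0.298) and against QH-II-066 -0.18 ± 0.20 (adjusted p = 0.9997). Over the 8 drug-treated against the 8 drug-free libraries Gphn was at -0.49 ± 0.14 (95% interval -0.79 to -0.18; adjusted p = 0.141), while over the 8 irradiated against the 8 unirradiated it was at -0.04 ± 0.14 (95% interval -0.35 to 0.27). The drug contrast of Gphn passed with DESeq2, at -0.48 ± 0.15 (adjusted p = 0.0354), and without untreated replicate 4 in edgeR, at -0.56 ± 0.13 (adjusted p = 0.0351). Without that library 17.5% of all tested genes passed in this contrast (2880 genes), as did 15.9% of those adjusted by DESeq2 (1167 genes).

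Among the GABARAP genes, Gabarap and Gabarapl2 had positive and Gabarapl1 negative values in drug-treated against drug-free libraries, none of which passed. Gabarap (ENSMUSG00000018567, chromosome 11, plus strand, 69991143 to 69994951) had 373, 273, 286 and 295 CPM in the combined group, 213, 243, 308 and 227 CPM after 5 Gy, 416, 339, 252 and 325 CPM after QH-II-066, and 269, 233, 222 and 355 CPM in untreated tumours. The highest libraries were replicates 1 of both drug groups and untreated replicate 4, and no group was free of overlap. The log2 fold change of Gabarap over drug-treated against drug-free libraries was 0.31 ± 0.13 (95% interval 0.03 to 0.58; edgeR adjusted p = 0.157), and without untreated replicate 4 it was 0.39 ± 0.12 and passed (adjusted p = 0.0420), as did 17.5% of all genes tested without it. The combined group against 5 Gy gave 0.31 ± 0.18 (adjusted p = 0.324), and QH-II-066 against untreated gave 0.30 ± 0.18 (adjusted p = 0.546).

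Gabarapl2, also known as GATE-16 (ENSMUSG00000031950, chromosome 8, plus strand, 111940703 to 111953612), had 89.9, 88.7, 80.2 and 70.0 CPM in the combined group, 56.7, 67.9, 79.5 and 62.7 CPM after 5 Gy, 117, 86.4, 62.2 and 81.9 CPM after QH-II-066, and 83.8, 68.6, 73.2 and 90.5 CPM in untreated tumours. The combined and 5 Gy libraries overlapped through 5 Gy replicate 3 and combined replicate 4, and their log2 fold change was 0.30 ± 0.17 (edgeR adjusted p = 0.304). Over drug-treated against drug-free libraries Gabarapl2 was at 0.22 ± 0.12 (adjusted p = 0.246).

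Gabarapl1 (ENSMUSG00000030161, chromosome 6, plus strand, 129533200 to 129542331) had 108, 135, 149 and 89.5 CPM in the combined group and 132, 138, 148 and 137 CPM after 5 Gy. It had 107, 137, 144 and 136 CPM after QH-II-066, and 148, 149, 140 and 124 CPM in untreated tumours. The 3 lowest libraries were all drug-treated, namely replicate 1 of both drug groups and combined replicate 4, the shallowest library. In the combined group against untreated Gabarapl1 was at -0.22 ± 0.14 (95% interval -0.52 to 0.09; edgeR adjusted p = 0.393), and over drug-treated against drug-free libraries at -0.15 ± 0.10 (adjusted p = 0.344). Per kilobase, Gabarap made up 61.6 ± 5.93% of the 3 genes' summed level in the combined group, 55.4 ± 2.19% after 5 Gy, 61.4 ± 4.62% after QH-II-066 and 55.8 ± 5.44% in the untreated group (SD, n = 4 each). Differences in this share were not tested.

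Gphn and Gabarap followed the gene length slope closely, in opposite directions. Over the 16 libraries, log2 CPM of Gphn had a Pearson r of 0.97 with the slope and a Spearman rho of 0.95 (permutation p = 1e-05 for both, the smallest that 100000 resamples can give, and 4.00e-05 adjusted over 8 genes). Gabarap had r = -0.97 and rho = -0.97 with the same p-values. Without the 2 libraries with the slopes farthest from the median, r was 0.96 for Gphn and -0.96 for Gabarap, and within groups, after removal of the group means, it was 0.98 for Gphn and -0.97 for Gabarap. The gene length counted for Gphn is 3397 bases and for Gabarap 1844 bases. It is 7748 bases for Abat, 6520 for Slc12a2, 5647 for Aldh5a1, 5131 for Slc12a7, 2325 for Gabarapl2 and 1765 for Gabarapl1. The r values of the 8 genes did not follow the order of this counted length. Gabarapl1, the shortest by it, had a positive r (0.60), and Abat, the longest by it, had a lower r (0.86) than Gphn. By the principal transcript, Gabarap (1351 bases) and Gabarapl2 (1677 bases), both with a negative r, were the shortest, and Gabarapl1 had 1820 bases. Slc12a2, the longest by the transcript (6520 bases), had a lower r (0.60) than Gphn (3300 bases).

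The other tested genes followed the slope less closely. Pearson's r was 0.86 for Abat, 0.83 for Slc12a7, 0.60 for Gabarapl1, 0.60 for Slc12a2, 0.58 for Aldh5a1 and -0.78 for Gabarapl2, with permutation p-values adjusted over the 8 genes between 0.000187 and 0.0189. Spearman's rho was 0.79 for Abat, 0.81 for Slc12a7, 0.52 for Gabarapl1, 0.82 for Slc12a2, 0.49 for Aldh5a1 and -0.79 for Gabarapl2, with adjusted permutation p-values of 0.000600 to 0.0558. Without the 2 farthest libraries r was 0.42 for Aldh5a1 and 0.39 for Gabarapl1, whose relations thus rest in part on those libraries, and it was 0.55 for Slc12a2, -0.70 for Gabarapl2, 0.80 for Abat and 0.85 for Slc12a7. Such relations were common in these libraries: 52.7% of all tested genes had an absolute r above 0.5 with the slope, and 12.2% had one above 0.9.

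**Figure D3:**
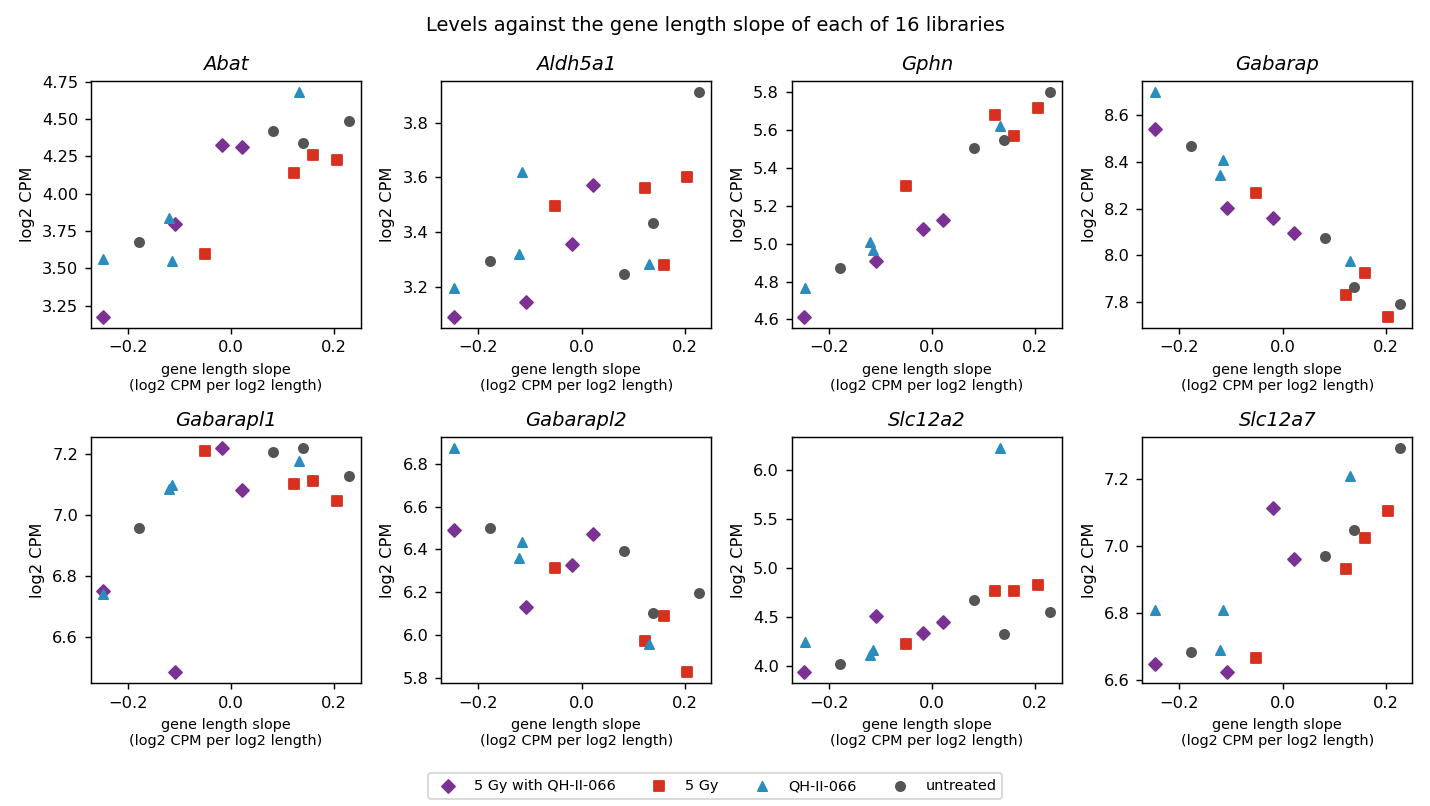
Log2 CPM (vertical axes) of the 8 tested genes against the gene length slope of each of 16 libraries (horizontal axes, in log2 CPM per log2 length), by group. Gphn rises and Gabarap falls along the slope in all 4 groups, and QH-II-066 replicate 3 lies above the others in the plot of Slc12a2.

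With the slope as a covariate, a setting chosen after the data had been seen, the values of both genes shrank together with their errors. In the combined group against 5 Gy, Gphn was at -0.22 ± 0.07 (edgeR adjusted p = 0.612) and Gabarap at -0.04 ± 0.07 (adjusted p = 0.929). Over drug-treated against drug-free libraries Gphn was at -0.12 ± 0.06, Gabarap at -0.01 ± 0.05 and Gabarapl2 at -0.01 ± 0.10, each with an adjusted p of 1. Abat had 0.28 ± 0.11 and Slc12a7 0.15 ± 0.07 in that fit, against -0.19 ± 0.21 and -0.10 ± 0.11 without the covariate, again with an adjusted p of 1. Drug-treated and drug-free libraries differ in the slope itself, and what RNA quality or treatment contributed to it was not tested.

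**Figure D4:**
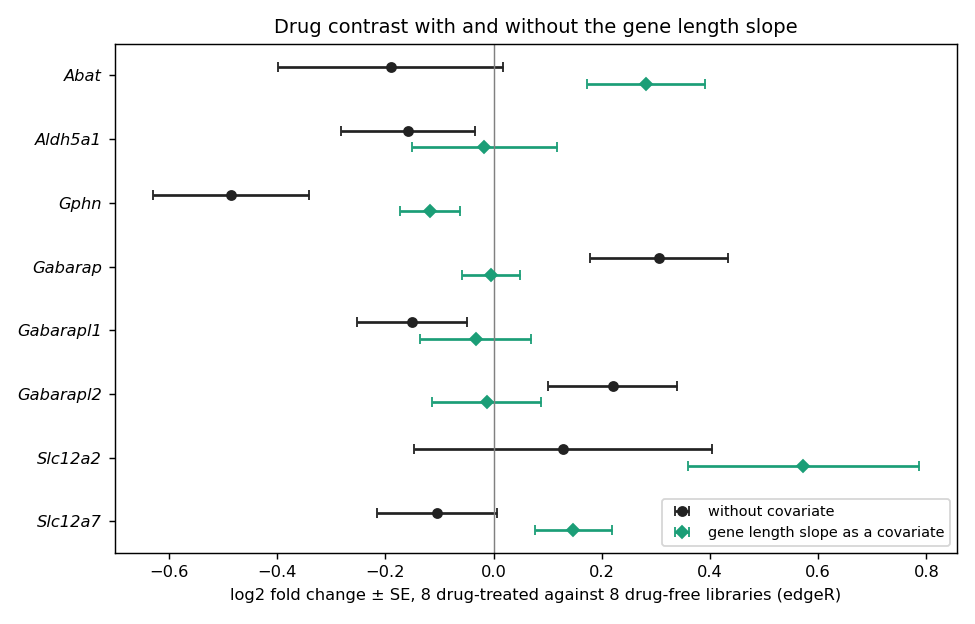
Log2 fold change ± SE (horizontal axis; edgeR) of the 8 tested genes (rows) in 8 drug-treated against 8 drug-free libraries, without (circles) and with (diamonds) the gene length slope as a covariate. The value of Gphn is -0.49 ± 0.14 without and -0.12 ± 0.06 with the covariate, and that of Gabarap 0.31 ± 0.13 without and -0.01 ± 0.05 with it.

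Of the chloride transporters, the exporter gene Slc12a7 was read at a higher level per kilobase than the importer gene Slc12a2 in each library. Slc12a7 (ENSMUSG00000017756, chromosome 13, plus strand, 73763697 to 73816743) had 100.1, 124, 138 and 98.5 CPM in the combined group and 138, 130, 102 and 122 CPM after 5 Gy. It had 112, 112, 148 and 103 CPM after QH-II-066, and 125, 132, 157 and 103 CPM in untreated tumours. The groups overlapped in full. Its log2 fold changes against untreated were -0.16 ± 0.16 in the combined group (95% interval -0.50 to 0.17), -0.07 ± 0.16 after 5 Gy and -0.12 ± 0.16 after QH-II-066 (edgeR adjusted p = 0.558, 0.857 and 0.727).

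One library decided the values of Slc12a2 (ENSMUSG00000024597). QH-II-066 replicate 3 had 74.8 CPM, while the other 15 libraries had 15.2 to 28.2 CPM, so it stood 2.65-fold above the next highest. The combined group had 15.2, 21.7, 20.2 and 22.6 CPM, the 5 Gy group 28.2, 27.2, 18.6 and 27.1 CPM, the QH-II-066 group 18.9, 17.8, 74.8 and 17.2 CPM and the untreated group 25.3, 19.96, 23.3 and 16.1 CPM. The log2 fold change of Slc12a2 in QH-II-066 against untreated was 0.60 ± 0.39 (edgeR adjusted p = 0.552) with that library and -0.24 ± 0.19 (adjusted p = 0.484) without it. The combined group against QH-II-066 gave -0.69 ± 0.39 (adjusted p = 0.9997) with it and 0.14 ± 0.19 without, where it did not pass either. Drug-treated against drug-free libraries gave 0.13 ± 0.28 (adjusted p = 0.801) with it and -0.29 ± 0.13 (adjusted p = 0.125) without. The combined group against untreated was at -0.09 ± 0.39 (95% interval -0.92 to 0.74; adjusted p = 0.907), against 5 Gy at -0.35 ± 0.39 (adjusted p = 0.597). Neither of these comparisons holds QH-II-066 replicate 3, but the fit shares its estimate of the spread over all groups. Without that library they gave -0.095 ± 0.17 (edgeR adjusted p = 0.766) and -0.35 ± 0.17 (adjusted p = 0.253).

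Transcripts of other tissues stood high in the same library. The summed level of 8 adipocyte genes, among them Adipoq and Plin1, ran from 139 to 1620 CPM over the QH-II-066 libraries, highest in replicate 3, from 282 to 828 CPM after 5 Gy, 109 to 467 CPM in the combined group and 72.3 to 193 CPM in untreated tumours. Of the 8, Adipoq, Cidec and Plin4 were at 0 in 1 library each, Lep in 2 and Plin1 in 3. The adipocyte score was 6.54 in QH-II-066 replicate 3. The next highest scores were 5.27 in 5 Gy replicate 2 and 5.03 in QH-II-066 replicate 4, which had 27.2 and 17.2 CPM of Slc12a2. Another 8 genes, of simple and glandular epithelium, were chosen after their values had been seen. All 8 were highest in QH-II-066 replicate 3, which may only reflect that choice. Their sum there was 83.6 CPM, against 0.576 to 6.75 CPM in the other 15 libraries. Krt19, a keratin of simple epithelia, had 24.4 CPM, against at most 1.67 CPM elsewhere, and Aqp5, a water channel of glands, 6.23 CPM, against at most 0.595 CPM. NKCC1 is known to be abundant in secretory epithelia. The part of these tissues in the Slc12a2 level was not tested.

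**Figure D5:**
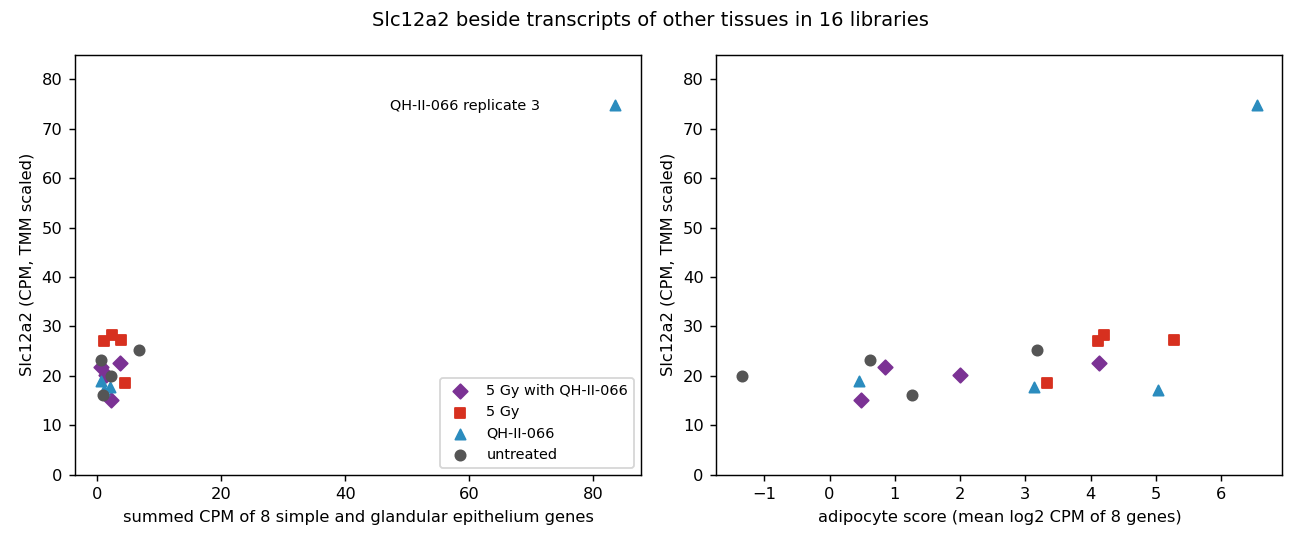
Slc12a2 level in CPM (vertical axes) of 16 libraries against the summed CPM of 8 genes of simple and glandular epithelium (left) and the adipocyte score, a mean log2 CPM (right), by group. The 8 epithelium genes were chosen after their values had been seen. QH-II-066 replicate 3, at 74.8 CPM of Slc12a2, is the highest library on all 3 measures.

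The ratio of Slc12a2 to Slc12a7 per kilobase, in which the scaling of a library cancels, was 0.120, 0.137, 0.115 and 0.181 in the combined group and 0.161, 0.165, 0.144 and 0.175 after 5 Gy. It was 0.133, 0.125, 0.398 and 0.132 after QH-II-066, and 0.159, 0.119, 0.117 and 0.123 in untreated tumours. Without QH-II-066 replicate 3, the other 15 libraries lay between 0.115 and 0.181. Replicates 1, 2 and 4 of the 5 Gy group lay above each untreated library and replicate 3 did not. The ratio was not tested.

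Genes around the 9 in the same pathways were looked up from 4 lists, and none of them passed in any of the 8 comparisons. Of 20 listed genes of GABA synthesis, breakdown and transport, 14 were tested. The best read were Odc1, which makes putrescine, at 393 CPM over the 16 libraries and Got1, a cytosolic transaminase that forms glutamate, at 386 CPM. Gad2, which encodes the other glutamate decarboxylase and was singled out after its values were seen, had 1 count in all. The median log2 fold change of this list was -0.22 in the combined group against untreated (all tested genes -0.0028), -0.11 after 5 Gy (all genes -0.08) and -0.06 after QH-II-066 (all genes 0.01).

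Gephyrin partners, receptor trafficking and the molybdenum cofactor had 21 of 22 listed genes tested. The best read were Pfn1, a profilin that binds actin and gephyrin, at 767 CPM and Dynll2, a dynein light chain that binds gephyrin, at 323 CPM. The median of this list was -0.07 in the combined group against untreated, 0.0014 after 5 Gy and -0.11 after QH-II-066. In drug-treated against drug-free libraries 8 of the 21 had a positive and 13 a negative value, with a median of -0.07 (all genes -0.01).

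All 18 listed genes of ATG8 conjugation, the machinery that joins GABARAP and LC3 proteins to lipid, with their binding partners, were tested. The best read were Sqstm1, the autophagy receptor p62, at 873 CPM and Map1lc3b, an LC3 gene, at 152 CPM. Their median was -0.02 in the combined group against untreated, -0.09 after 5 Gy and 0.05 after QH-II-066, and in drug-treated against drug-free libraries 12 of the 18 had a positive value, with a median of 0.07.

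Of 24 genes of cation-chloride cotransport, WNK kinases and chloride channels, 22 were tested. Atp1b3, a subunit of the sodium pump whose gradient drives NKCC1, averaged 305 CPM. The median of this list was -0.08 in the combined group against untreated, -0.09 after 5 Gy and -0.09 after QH-II-066. Per kilobase, a pair of other exporter genes, named after their values were seen, averaged 9.94 CPM per kilobase for Slc12a4 (KCC1) and 0.265 for Slc12a5 (KCC2, the exporter of mature neurons), both below the 23.7 CPM per kilobase of Slc12a7.

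The 8 tested genes were also compared with one another and with the rest of the table by the correlation of log2 CPM over the 16 libraries, given as a description, since the libraries differ in depth, in slope and in other tissues. The closest pairs were Gphn and Gabarap, with r = -0.93, Abat and Slc12a7, with r = 0.87, and Gabarap and Gabarapl2, with r = 0.86. Aldh5a1 and Slc12a2 were almost unrelated (r = 0.04). Among 11855 other genes, those most like Gphn were Asxl1 (r = 0.98), Ttc37 (r = 0.98) and Atl3 (r = 0.98), and those most like Gabarap were Akr1a1 (r = 0.99), Nedd8 (r = 0.98) and Uqcrb (r = 0.98). Abat was close to Klhl18 and Adcy6 (r = 0.95 each), and Slc12a7 to Ficd, Hmcn1 (r = 0.95 each) and Tecpr2 (r = 0.94).

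Gabarapl2 was closest to Hmgb2 (r = 0.96), Pole3 (r = 0.96) and Rpl5 (r = 0.95), and Aldh5a1 to Rasd2 (r = 0.87), Arhgap10 (r = 0.86) and Eps8 (r = 0.85). Gabarapl1 was closest to Afg3l2 and Tspan31 (r = 0.95 each), with a Spearman rho of 0.74 and 0.76. For both, r was 0.87 without the 2 libraries where Gabarapl1 lay farthest from its median. Slc12a2 was closest to Acaca (r = 0.92), Pcx (r = 0.90) and Scd1 (r = 0.89), enzymes of fatty acid synthesis and pyruvate metabolism. These 3 relations rest partly on QH-II-066 replicate 3, which had 151 CPM of Acaca, 104 CPM of Pcx and 1422 CPM of Scd1, against at most 93.8, 31.6 and 462 CPM in the other 15 libraries. Without the 2 libraries farthest from the median, r was 0.73 for Acaca, 0.44 for Pcx and 0.55 for Scd1.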

How the data were processed

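RNA of 16 tumour libraries was prepared by transcriptome capture, per the labels' protocols. The submitters' processing notes name STAR 2.4.1a, featureCounts and edgeR, with build mm10. Read pairs were counted over exons by featureCounts 1.6.0 without a strand option, per the file headers, and the deposited values are raw counts per gene for 46078 genes (45143 with a symbol). Groups came from the sample titles. One edgeR 4.0.16 model of group means over all 16 libraries (R 4.3.3; filterByExpr, TMM, robust quasi-likelihood, two-sided) tested 16101 genes with Benjamini-Hochberg adjustment at 0.05. Log2 CPM used a prior count of 2. Marker scores are mean log2 CPM of each list. The 9 genes and the lists were chosen with earlier results of these data known. Of each pathway list, up to 4 genes past the threshold were to be named, or otherwise the 2 best read, and of each tested gene the 3 most correlated genes. Some of the genes so chosen are not reported here. The other settings were RLE scaling, DESeq2 1.42.0, no filter, a replicate block, fits without skin-bearing libraries, with a muscle score, of the compared groups alone, or without each library, and, added after the data were seen, the gene length slope. No 2 libraries of a group were alike within sampling noise (chi-square per degree of freedom of 17.6 or more in all 24 pairs within groups).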

Additional observations from a re-analysis of the deposited data

Results flagged for a closer look

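Of 52 groups of 4 values looked at for a library far from the rest, 4 were marked by Dixon's gap test, where chance marks about 1 in 20. Slc12a2 stood at 74.8 CPM in QH-II-066 replicate 3, against 18.9 CPM in the next library of that group. The ratio of Slc12a2 to Slc12a7 per length was 0.398 in the same library, against 0.133 in the next. Slc12a2 was low at 18.6 CPM in 5 Gy replicate 3, the 5 Gy library with the lowest gene length slope (-0.05), against 27.1 CPM in the next lowest. The ratio was 0.159 in untreated replicate 1, against 0.123 in the next.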

How the results depend on the processing

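The count of the 8 tested genes past the threshold was 0 in the 8 comparisons under all settings run except drug-treated against drug-free libraries, where DESeq2 called 1 (Gphn) and leaving out single libraries gave 0 to 2 (Gphn and Gabarap without untreated replicate 4). The value of Slc12a2 in QH-II-066 against untreated became -0.24 without QH-II-066 replicate 3, over a range of -0.24 to 0.81 with each library left out. That of Gabarap in the combined group against untreated became -0.076 with the gene length slope. The cause was not tested. The combined group against 5 Gy for Gphn lay between -0.90, without the skin-bearing libraries, and -0.22, with the slope, over 24 settings, with adjusted p from 0.0825 to 0.612. The fit without skin-bearing libraries has 1 combined library, assumed to vary like the others. The 64 fold changes of the 8 genes gave 1512 values under other settings. Of these, 1406 kept their sign and side of the threshold, and 3 newly passed. A further 101 changed sign, with neither value called and with the main value, the new value or both within 1 SE of 0. Some new values among them lay beyond 1 SE, such as Slc12a2 in drug-treated against drug-free libraries without QH-II-066 replicate 3 (-0.29 ± 0.13). The remaining 2 changed sign with both values over 1 SE from 0 (those of Slc12a2 and Gabarap above).

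Counts of all genes called moved more. For 5 Gy against untreated (203), DESeq2 called 1224, the fit without skin-bearing libraries 22, the muscle score 2, and single libraries left out 0 to 739. For irradiated against unirradiated (226), DESeq2 called 799, while the unfiltered fit, the fit without skin-bearing libraries, the muscle score and the slope each gave 0, and single libraries left out 0 to 504. Where edgeR called 0, DESeq2 called 16 for QH-II-066 against untreated, 206 for the combined group against untreated, 123 for it against 5 Gy, 48 for it against QH-II-066, 59 for the interaction and 1167 for drug-treated against drug-free, where leaving out untreated replicate 4 gave 2880 and any other library 0. By the labels, same-numbered libraries share only a number. Their deviations correlated above 0.1 in 12 of 24 pairs (-0.43 to 0.48). Differently numbered pairs were not compared, so these values do not show whether the number marks a batch. With the replicate block, 154 and 157 genes passed in the radiation comparisons, 0 in the others, and 0 of the 8 genes. Of the 9 genes, Gad1 had too few counts to be tested.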
